A study of Mus musculus with 20 samples.

Results

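The response of control nephron progenitor cells (NPCs) to a raised dose of CHIR99021 (CHIR), an inhibitor of the kinase GSK3β, was measured by RNA sequencing. The 6 control (CTRL) libraries of the 20 libraries in the series were chosen by their labels: 3 came from cells in low CHIR (1.25 µM) and 3 from cells in high CHIR (5 µM), with 1 library of each for each of the 3 dates in the sample names. The labels do not say whether a date is that of cell isolation, sorting or library preparation. All cells carried a Cas9-eGFP transgene and were isolated from E16.5 kidneys of mice, from crosses with SWR/J according to the study's methods, then grown as NPCs in progenitor expansion medium. CTRL cells received an sgRNA against GFP together with mCherry mRNA, were kept for 48 h in culture for the knockout to take place, spent 24 h in low or high CHIR, and were sorted for mCherry. The other 14 libraries came from cells given sgRNAs against α-catenin, against several cadherins (QCKO) or against β-catenin, and enter here only for the spread between libraries and for a comparison of responses. Sorting kept cells that had taken up mCherry mRNA, which marks transfection and not editing, so a CTRL library may hold cells with and without a cut in the GFP transgene. No level of the GFP transgene was used here, so the action of the CTRL guide was not checked.

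The CTRL guide is shown because every CTRL cell in the comparison received it. It has 20 bases and is written from 5′ to 3′ as RNA.
GFP sgRNA: gagcuggacggcgacguaaa

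NPCs are the mesenchymal stem cells of the nephron. Wnt ligand from the ureteric bud acts on them through β-catenin, which is held low by a complex containing GSK3β, so that inhibiting GSK3β lets β-catenin accumulate and bind TCF/LEF factors on DNA. Low activity of the pathway goes with self-renewal of NPCs, and high activity starts the program of the renal vesicle, the first epithelial structure of the nephron, with loss of progenitor genes and gain of genes such as *Wnt4*, *Lhx1* and *Jag1*. CHIR is used in culture to set either state.

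Values below are the deposited normalized counts, which are reads per gene divided by 1 size factor for each library, and groups of values are always given in the order of dates 1, 2 and 3, with low CHIR before high CHIR. CTRL libraries held 19950784 to 28472412 reads in genes. Fold changes are the mean over the 3 dates of the difference high minus low CHIR in log2(normalized count + 1), which understates the change of genes with low counts, and p-values are from limma with Benjamini-Hochberg adjustment over all 16516 genes tested. A gene counted as called, higher or lower, where its adjusted p was below 0.05 and its log2 fold change exceeded 0.5 in size. One library stood apart in scale: CTRL high CHIR on date 2 had a normalized total of 28329411, against 21117858 to 22804129 in the other 5, and 2160 genes were called without it.

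High CHIR changed the level of 2556 of 16516 genes, or 15.5%. Of these, 1155 genes were higher in high CHIR, 6.99% of all tested, and 1401 were lower, 8.48%. The median log2 fold change was 1.32 among the higher genes and -1.29 among the lower genes, and 325 and 328 genes passed an absolute value of 2. The changes at the far ends were larger in number among increases: 29 genes rose by over 5 on the log2 scale and 12 fell by as much. In 1011 of the higher and 1218 of the lower genes the 3 high CHIR libraries did not overlap with the 3 low CHIR libraries. These genes were called on the same libraries, so the counts only describe them, and the share over all genes tested is not given here. Called genes took a small part of the RNA: those called higher made up 6.88% of normalized counts in low CHIR and 11.2% in high CHIR, and those called lower 6.06% and 2.34% (means of 3). The median over all genes tested was -0.006, which the division by size factors sets near 0.

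The number of called genes rested on the libraries in the fit. The spread was estimated over the 14 libraries of CTRL, α-catenin KO and QCKO. With the 6 CTRL libraries alone, 906 genes were called, of which 895 were among the 2556. Leaving out date 3 gave 1277 genes and leaving out CTRL low CHIR of date 1 gave 1505. Without the date as a block, 1760 were called. In each of 9 fits that left out 1 CTRL library or 1 date, 460 of the higher and 572 of the lower genes kept their call wherever they were tested.

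**Figure D1:**
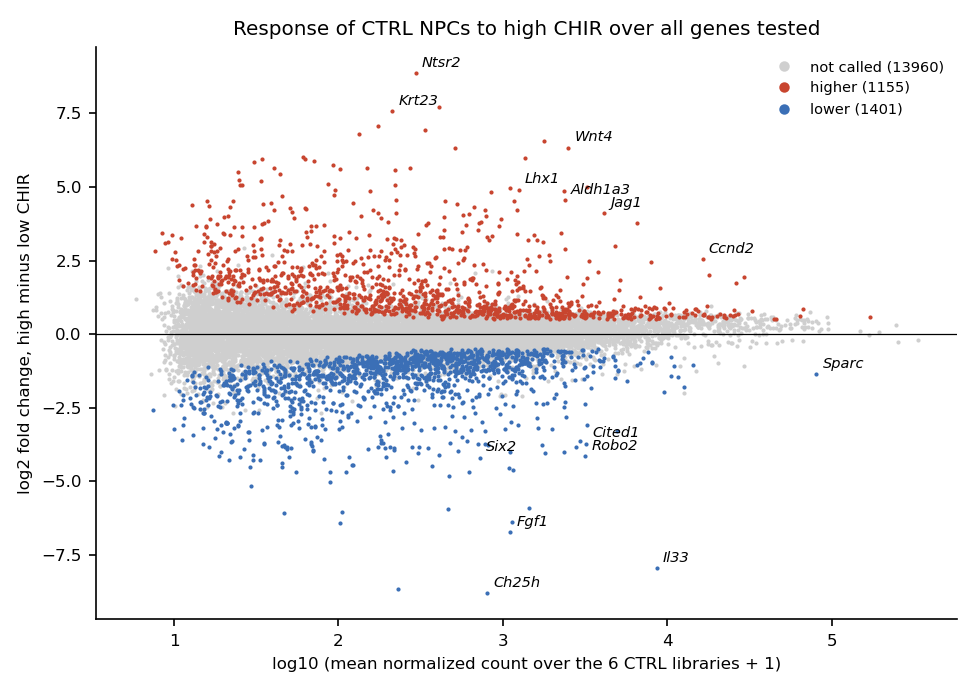
Log2 fold change of high minus low CHIR in CTRL (vertical axis) against the mean normalized count over the 6 CTRL libraries (horizontal axis, log10 of the count + 1) for each of 16516 genes. Red points are the 1155 genes called higher, blue points the 1401 called lower and grey points the 13960 not called; both kinds of change occur at all levels, and *Il33* and *Ch25h* lie lowest among the labelled genes.

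Gene names were available for 4316 of 31130 identifiers, because the tables that pair identifiers with names hold genes selected in the study's own comparisons, 2494 of them in this very comparison. Counts of list members below are therefore counts of named members and not shares of a pathway. Among the 3924 tested genes with a name, 22.6% were called higher and 29.1% lower, and list counts are to be read against those shares.

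Progenitor genes fell. Of 20 genes listed for NPC self-renewal, 12 had a name here, 11 were called lower and 1 was called higher, with a median log2 fold change of -3.74 against -0.006 over all genes. *Six2*, the transcription factor that keeps NPCs undifferentiated, stood at 1539.6, 1642 and 943 normalized counts in low CHIR and at 69.2, 64.1 and 83.8 in high CHIR (log2 fold change -4.20 ± 0.27 SE, adjusted p = 2.8e-06). *Osr1*, a transcription factor of the early nephrogenic mesenchyme, went from 1129.9, 1276 and 1187 to 61.2, 27.8 and 55.6 (log2 fold change -4.68 ± 0.29 SE, adjusted p = 2.5e-06). The homeobox gene *Meox2* had the largest fall of the list, from 3028, 1729.8 and 1984 to 47.6, 8.54 and 36.8 (log2 fold change -6.39 ± 0.38 SE, adjusted p = 1.6e-06). In all 3 genes the highest high CHIR library lay more than 10-fold below the lowest low CHIR library. *Cited1*, a transcriptional cofactor of the uninduced progenitor, was at 6965, 3987 and 6898, then 361, 641 and 355 (log2 fold change -3.73 ± 0.29 SE, adjusted p = 9.8e-06). *Eya1*, a phosphatase and cofactor of homeobox factors, fell less, from 4783, 3427 and 3699 to 1153, 662 and 456 (log2 fold change -2.48 ± 0.22 SE, adjusted p = 2.8e-05). The lower call also covered *Wt1* (log2 fold change -2.02), *Foxc2* (-3.15), *Tmem100* (-4.00), *Crym* (-3.76), *Phf19* (-4.11) and *Dpf3* (-2.37), and of the 11, *Dpf3* alone lost its call in a leave-out fit (adjusted p = 0.056 without date 3). *Pax2*, a transcription factor that is kept on in the forming epithelium, was the exception, with 169.6, 355 and 319 in low CHIR, then 1235, 812 and 1818 in high CHIR (log2 fold change 2.19 ± 0.28 SE, adjusted p = 0.00034). In bulk RNA, fewer cells of a type and less RNA per cell cannot be told apart, and this holds for each fall given here.

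**Figure D2:**
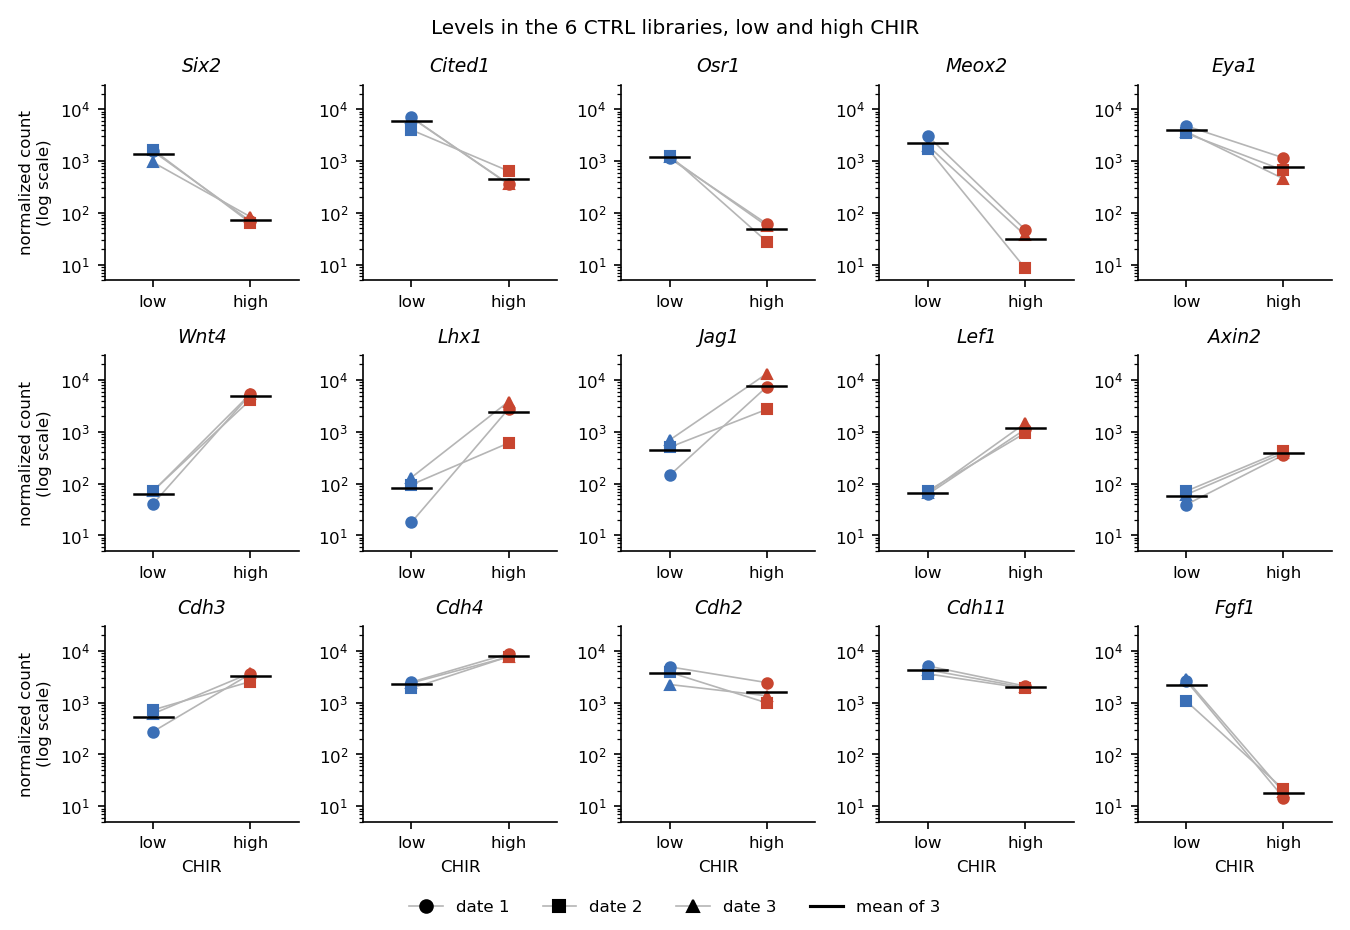
Normalized counts (vertical axes, log scale) of 15 genes in the 3 low CHIR (blue) and 3 high CHIR (red) CTRL libraries, with the shape for the date, a grey line joining the libraries of 1 date and a black bar at the mean of 3. The 5 progenitor genes of the upper row and *Fgf1* drop on every date, *Wnt4* rises to over 4000 on every date, and *Lhx1* and *Jag1* are lowest on date 1 in low CHIR and on date 2 in high CHIR.

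Genes of renal vesicle induction rose. Among the 15 named of 22 listed genes, 11 were called higher, 3 lower and 1 was not called, with a median log2 fold change of 2.70, and all 11 higher genes kept their call in the 9 leave-out fits. *Wnt4*, the ligand that drives the mesenchymal to epithelial transition of NPCs, had 41.1, 72.6 and 72.0 normalized counts in low CHIR, then 5286, 4156 and 5401 in high CHIR (log2 fold change 6.33 ± 0.27 SE, adjusted p = 4.5e-07). *Lef1*, a DNA partner of β-catenin, went from 62.5, 72.6 and 66.7 to 1118, 948 and 1465 (log2 fold change 4.09 ± 0.20 SE, adjusted p = 6.8e-07). Both genes varied little within a condition. *Lhx1*, a transcription factor of the renal vesicle, was less even, with 17.9, 95.3 and 131 in low CHIR, then 2785, 609.9 and 3849.9 in high CHIR (log2 fold change 4.91 ± 0.68 SE, adjusted p = 0.00059). *Jag1*, a Notch ligand, had 145, 505 and 694, then 7444, 2725 and 13323 (log2 fold change 4.12 ± 0.46 SE, adjusted p = 0.00012). In both, date 1 was lowest in low CHIR and date 2 lowest in high CHIR, and no high CHIR library came down to the low CHIR range. *Emx2*, a homeobox gene of the urogenital epithelium, was likewise lowest on date 1 in low CHIR and on date 2 in high CHIR, going from 15.2, 108 and 75.2 to 670.2, 439 and 2135 (log2 fold change 4.06 ± 0.54 SE, adjusted p = 0.00046). The zinc finger gene *Ovol1* rose from 19.6, 75.8 and 61.4 to 398, 437 and 452 (log2 fold change 3.21 ± 0.39 SE, adjusted p = 0.00025), and *Clec18a*, a lectin-like gene, from 16.1, 153 and 170.4 to 1290.5, 1667 and 1350.2 (log2 fold change 4.22 ± 0.61 SE, adjusted p = 0.00082). Further increases were those of *Npy* (log2 fold change 2.66), *Bmp2* (2.36), *Cdh3* (2.70) and *Cdh4* (1.84). The list held 3 genes that fell: *Sox9*, from 611, 689 and 778 to 139, 240.3 and 170 (log2 fold change -1.94 ± 0.22 SE, adjusted p = 0.00013), the BMP modulator *Bmper* (log2 fold change -3.10) and the integrin *Itga4* (-2.30, and not called without CTRL low CHIR of date 1, -1.97, or without date 3, -2.20). *Tmem132a* stood at 81.2, 207 and 49.7 in low CHIR, then 119, 40.6 and 74.4 in high CHIR (adjusted p = 0.65).

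Within the list of Wnt feedback genes and targets the 2 directions were mixed: 6 of the 15 named genes were higher, 8 lower and 1 was not called, with a median log2 fold change of -1.09. The genes that rose include well-known readouts of β-catenin. *Axin2*, a scaffold of the β-catenin destruction complex, stood at 39.3, 71.5 and 61.4 normalized counts in low CHIR, then 357, 435 and 391 in high CHIR (log2 fold change 2.80 ± 0.19 SE, adjusted p = 4.0e-06). *Notum*, a secreted enzyme that inactivates Wnt ligands, went from 3.57, 6.5 and 5.29 to 102, 312 and 125 (log2 fold change 4.74 ± 0.32 SE, adjusted p = 3.7e-06), and its highest value was that of date 2. The transcription factor *Sp5* had no read in any low CHIR library and 56.7, 36.3 and 106 normalized counts in high CHIR (adjusted p = 9.1e-06), at least 21.8-fold higher when low CHIR is set at 3 reads per library. *Tcf7*, a further DNA partner of β-catenin, rose from 172, 157 and 152 to 445, 371 and 578 (log2 fold change 1.5 ± 0.19 SE, adjusted p = 0.00027). These 4 genes, *Lef1* and the δ-catenin gene *Ctnnd2* (log2 fold change 2.50) kept their call in the 9 leave-out fits. Among the genes that fell were *Tcf7l1*, the TCF factor known as a repressor, from 2004, 2246 and 1733 to 714, 624 and 554 (log2 fold change -1.66 ± 0.14 SE, adjusted p = 2.3e-05), and *Myc*, from 1149.6, 2366 and 1600.5 to 359, 160.2 and 525 (log2 fold change -2.39 ± 0.38 SE, adjusted p = 0.0015). Secreted modulators fell too: *Rspo1*, an enhancer of Wnt signalling, from 105, 134 and 150.3 to 2.27, 38.5 and 11 (log2 fold change -3.49 ± 0.52 SE, adjusted p = 0.00096), *Dkk2* (log2 fold change -3.10) and *Dkk3* (-1.87). The receptors *Lgr4* (-1.09), *Ror2* (-1.46) and *Ror1* (-1.48) completed the 8, of which *Ror1* was called in 6 of 9 leave-out fits (adjusted p up to 0.060 in the others) and not without the date block (adjusted p = 0.080). For the R-spondin receptor *Lgr5* the values were 560.5, 250.2 and 359 in low CHIR, then 202, 178 and 215 in high CHIR (adjusted p = 0.051).

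Promoter sequences are shown for 3 of the genes that rose, because *Sp5* and *Axin2* are used as readouts of β-catenin activity and *Lef1* encodes its DNA partner. They span 250 bases before to 50 bases after a RefSeq start (GRCm38.p6), 5′ to 3′ on the gene's strand, and capitals mark a TCF/LEF core motif, CTTTG followed by AA, AT, TA or TT, searched on both strands. The *Sp5* promoter at chr2:70474673-70474972 (plus strand) held 2 matches. *Lef1* has 4 promoters in the RefSeq table, and the motif was in 1 of them, at chr3:131156044-131156343 (plus strand). Only this window is printed, because it holds the motif. The *Lef1* windows without a match lie upstream of it, between chr3:131110047 and chr3:131112840. No match was in the *Axin2* promoter at chr11:108920099-108920398 (plus strand).
Sp5: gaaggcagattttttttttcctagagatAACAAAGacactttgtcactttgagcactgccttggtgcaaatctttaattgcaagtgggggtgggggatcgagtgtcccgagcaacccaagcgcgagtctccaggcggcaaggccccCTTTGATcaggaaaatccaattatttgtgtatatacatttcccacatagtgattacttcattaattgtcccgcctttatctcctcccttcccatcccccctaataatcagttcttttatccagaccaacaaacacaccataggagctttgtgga
Lef1: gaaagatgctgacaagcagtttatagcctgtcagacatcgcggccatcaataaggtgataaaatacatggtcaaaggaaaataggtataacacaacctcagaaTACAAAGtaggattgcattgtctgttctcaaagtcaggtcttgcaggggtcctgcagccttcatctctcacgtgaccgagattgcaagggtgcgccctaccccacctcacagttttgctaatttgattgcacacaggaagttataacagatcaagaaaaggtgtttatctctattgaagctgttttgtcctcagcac
Axin2: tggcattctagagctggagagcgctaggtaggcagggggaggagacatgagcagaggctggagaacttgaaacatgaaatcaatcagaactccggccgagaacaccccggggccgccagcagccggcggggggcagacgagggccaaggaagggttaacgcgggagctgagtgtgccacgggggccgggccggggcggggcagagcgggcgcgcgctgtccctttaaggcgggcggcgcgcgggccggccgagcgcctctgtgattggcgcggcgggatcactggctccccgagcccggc

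Of the 16 genes called higher in the induction and Wnt lists, 11 had a promoter in the table, 15 promoters in all, and 2 of these promoters, 1 of *Sp5* and 1 of *Lef1*, held the motif. Among all 32851 promoters of that length, 16.9% held the motif, and the windows do not cover distant elements.

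Wnt receptors changed in both directions. *Fzd6* rose from 8.03, 42.2 and 32.8 normalized counts to 328, 352 and 582 (log2 fold change 4.11 ± 0.36 SE, adjusted p = 2.4e-05) and *Fzd10* from 4.46, 1.08 and 2.12 to 20.4, 38.5 and 47.8 (log2 fold change 3.39 ± 0.50 SE, adjusted p = 0.00092). *Fzd4* fell from 792, 899 and 1066 to 99.8, 49.1 and 157 (log2 fold change -3.30 ± 0.27 SE, adjusted p = 1.7e-05). Smaller falls were those of *Fzd2* (log2 fold change -1.0), *Fzd1* (-0.86) and the co-receptor *Lrp6* (-0.85). Of these Frizzled and Lrp genes, *Fzd1* lost its call in 6 of the 9 leave-out fits (for example -0.73, adjusted p = 0.076, without CTRL low CHIR of date 3) and the others kept theirs. *Fzd3* was called at a log2 fold change of 0.54 but in only 2 of the 9. With *Wnt4*, 4 of 10 tested ligand and receptor genes were higher and 4 lower. *Wnt5b* stood at 144, 133 and 113, then 191, 132 and 139 (adjusted p = 0.42).

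Notch genes moved in both directions. Besides the ligand *Jag1*, the Notch target *Heyl* rose, from 40.2, 54.2 and 99.5 to 1315, 219 and 755 (log2 fold change 3.30 ± 0.58 SE, adjusted p = 0.0029). The receptor *Notch2* fell from 3502, 3918 and 4302 to 2057, 543 and 2100.1 (log2 fold change -1.55 ± 0.34 SE, adjusted p = 0.0095), lowest on date 2, and was not called without CTRL low CHIR of date 2 (-1.24, adjusted p = 0.051). The target *Hes1*, which other signals also regulate, fell from 847, 1281 and 1023 to 238, 455 and 374 (log2 fold change -1.59 ± 0.21 SE, adjusted p = 0.00044). In all, 2 of 7 tested genes of the pathway were higher, 4 lower and 1 not called. One of the 4, *Rfng*, which modifies Notch receptors (log2 fold change -0.88), was called in 0 of 9 leave-out fits and not without the date block (adjusted p = 0.0503), so that 3 were lower in 8 of these fits and 2 without CTRL low CHIR of date 2.

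Each called gene of the FGF list fell: of 28 listed genes 6 were named and tested, with 4 lower and 0 higher. FGF signalling sustains NPCs, and *Fgf1*, one of its ligands, dropped from 2661, 1077 and 2842 to 14.7, 21.4 and 18.8 (log2 fold change -6.72 ± 0.35 SE, adjusted p = 1.0e-06). *Etv1*, a transcription factor downstream of FGF receptors, fell from 2420.5, 1380 and 2161 to 273, 248 and 205 (log2 fold change -3.00 ± 0.18 SE, adjusted p = 1.9e-06). The feedback inhibitors *Spry1* and *Spry4* fell to a lesser extent (log2 fold change -1.21 and -1.49). No library of 1 condition overlapped with the other in these 4 genes, and all 4 kept their call in the 9 leave-out fits.

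Of 36 listed BMP and TGFβ genes 13 were named and tested, with 8 called higher, 2 lower and 3 not called. *Bmp7*, a BMP ligand needed to keep nephron progenitors, rose from 23.2, 74.7 and 54.0 to 806, 391 and 1270.2 (log2 fold change 3.99 ± 0.42 SE, adjusted p = 9.3e-05). The BMP receptor *Bmpr1b* rose from 92.8, 62.8 and 195 to 1052, 630.2 and 791 (log2 fold change 2.94 ± 0.30 SE, adjusted p = 7.2e-05) and *Id4*, a helix-loop-helix inhibitor, from 80.3, 127 and 181 to 555, 937 and 1407 (log2 fold change 2.87 ± 0.19 SE, adjusted p = 3.5e-06). Their low and high CHIR ranges were far apart on each date. The increases of the receptor *Acvr2b* (log2 fold change 1.39) and of *Smad9* (1.36) were smaller. Calls were less sure for 2 secreted BMP or activin inhibitors: *Grem1* (1.39) lost its call in 7 of 9 leave-out fits and *Fst* (2.36) in the 3 that left out a CTRL library of date 2 or that date. Another inhibitor, *Nog*, fell from 8.93, 21.7 and 21.2 to 2.27, 5.34 and 2.35 (log2 fold change -2.06 ± 0.42 SE, adjusted p = 0.0069) but was not called without date 3 (-1.72, adjusted p = 0.087), 1 of the 6 leave-out fits that tested it. *Tgfbr2* fell as well (-1.53). *Id2*, at 31430, 23429 and 30396 in low CHIR, then 36971, 61489 and 38248 in high CHIR, was not called (adjusted p = 0.059).

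Retinoid enzymes moved in opposite directions. *Rdh10*, which makes retinaldehyde from retinol, fell from 2128, 2075 and 2458 to 76.0, 59.8 and 150.5 (log2 fold change -4.63 ± 0.25 SE, adjusted p = 1.1e-06). *Aldh1a3*, which makes retinoic acid from retinaldehyde, rose from 241, 98.6 and 223 to 4875, 2075 and 6746 (log2 fold change 4.54 ± 0.25 SE, adjusted p = 1.1e-06). The retinoic acid binding protein gene *Crabp2* rose from 129, 185 and 119 to 419.6, 4731 and 1730.2 (log2 fold change 3.41 ± 0.44 SE, adjusted p = 0.00038), with the lowest high CHIR value on date 1. *Rara* was at 82.1, 156 and 70.9, then 59.0, 69.4 and 84.6 (adjusted p = 0.33), and no more genes of this list had a name.

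Cadherins, the adhesion receptors that the catenins link to actin, changed in both directions. *Cdh3*, encoding P-cadherin, rose from 277, 726 and 612 to 3588, 2557 and 3719.8 (log2 fold change 2.70 ± 0.30 SE, adjusted p = 0.00012), and *Cdh4*, encoding R-cadherin, from 2494, 1888 and 2404 to 8839.6, 7756 and 7647 (log2 fold change 1.84 ± 0.19 SE, adjusted p = 8.1e-05). *Cdh13*, which lacks a cytoplasmic part, rose from 101, 200.4 and 233 to 1034, 1025 and 834 (log2 fold change 2.51 ± 0.29 SE, adjusted p = 0.00015). Mesenchymal cadherins fell: *Cdh11* from 5112, 3594 and 4295 to 2092, 1883 and 1968 (log2 fold change -1.12 ± 0.19 SE, adjusted p = 0.0023) and *Cdh2*, encoding N-cadherin, from 4920.4, 3857 and 2241 to 2439, 989 and 1359 (log2 fold change -1.23 ± 0.32 SE, adjusted p = 0.023). The *Cdh2* values overlapped between conditions and the call was lost in 5 of 9 leave-out fits, with log2 fold changes of -0.87 to -1.22. Its level was lower in high CHIR on all 3 dates. *Ctnna1*, the α-catenin gene, had 10082, 7749 and 9634 in low CHIR, then 9314, 5817 and 7624 in high CHIR and was not called (log2 fold change -0.29 ± 0.14 SE, adjusted p = 0.18). Of the 9 tested cadherin and catenin genes, 4 were higher, among them the catenin gene *Ctnnd2*, and 4 lower, of which 2 kept their call in every leave-out fit. Without CTRL low CHIR of date 2, CTRL high CHIR of date 2 or of date 3, or date 2 as a whole, the lower genes were 2.

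*Cdh1*, encoding the epithelial E-cadherin, was called lower, with 34.8, 448 and 167 in low CHIR, then 24.9, 34.2 and 50.2 in high CHIR (log2 fold change -1.95 ± 0.52 SE, adjusted p = 0.027). That call was lost without CTRL low CHIR of date 2 (-1.25, adjusted p = 0.12), in 5 of 9 leave-out fits in all, and without the date block (adjusted p = 0.18). The same library held the most *Krt8*, at 21.4, 376 and 127 over the low CHIR libraries, *Cldn3*, at 8.93, 403 and 26.5, and *Krt7*, at 4.46, 101 and 19.1. *Cdh1* and *Krt8* are also markers of ureteric epithelium, as are *Gata3* and *Hoxb7*, which were called higher (log2 fold change 2.40 and 1.16). Of the 4 tested ureteric markers 2 were higher, 1 was lower and 1 was not called. The 5 named ureteric markers of 13 listed summed to 314 to 1286 in low CHIR and 875 to 1057 in high CHIR, and the part of such cells in these values was not tested. *Krt23*, an epithelial keratin gene, rose from 0, 1.08 and 2.12 to 539, 148 and 577, with 3 reads in all in low CHIR and 1350 in high CHIR (ratio of normalized levels 435, 95% counting interval 148 to 2110, adjusted p = 6.4e-06). The tight junction gene *Marveld2* and the desmosomal cadherin *Dsc2* rose as well (log2 fold change 2.49 and 2.12). *Dsc2* was not called with only the 6 CTRL libraries or with all 20 libraries. Of 8 tested junction and keratin genes, 3 were higher, 3 lower and 2 not called. The lower genes were *Krt7* (log2 fold change -3.68), *Cldn1* (-1.59) and *Pkp4* (-0.71). *Krt7* was called in 9 of 9 leave-out fits but not without the date block (adjusted p = 0.063), and *Cldn1* and *Pkp4* in 7 of 9 each.

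Most named mesenchymal genes fell. Of 20 listed genes 10 were named and tested: 8 were lower, 1 was higher and 1 was not called, with a median log2 fold change of -1.32. Of the 8 lower genes, 6 kept their call in every leave-out fit. *Snai2*, a repressor of epithelial genes, went from 4184, 2047 and 2537 to 521, 219 and 253 (log2 fold change -3.18 ± 0.18 SE, adjusted p = 1.3e-06), and *Zeb1*, a second such repressor, from 1852, 1151 and 2016 to 392, 206 and 180.2 (log2 fold change -2.73 ± 0.28 SE, adjusted p = 6.8e-05). The matrix gene *Tgfbi* fell from 10464, 8681 and 7389 to 1558, 901 and 495 (log2 fold change -3.30 ± 0.24 SE, adjusted p = 6.1e-06). In these 3 genes no high CHIR library overlapped with low CHIR. *Sparc*, a matrix glycoprotein gene, fell from 121953, 99899.8 and 127719 to 52331, 44186 and 38990.5 (log2 fold change -1.37 ± 0.18 SE, adjusted p = 0.00046). *Vim* was called at -1.04 but lost its call in 5 of 9 leave-out fits and without the date block (adjusted p = 0.069). *Snai1* stood at 246, 601 and 159, then 426, 64.1 and 60.3 (adjusted p = 0.17), and it rose on date 1 and fell on dates 2 and 3. The exception was *Mmp9*, a matrix protease, which rose from 17.0, 14.1 and 9.53 to 735, 110 and 454 (log2 fold change 4.56 ± 0.53 SE, adjusted p = 0.00017).

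Among genes of the basement membrane and matrix receptors, members of 1 family moved in different directions. *Col18a1*, a basement membrane collagen, rose from 50.0, 213 and 116 to 519, 1021 and 1014 (log2 fold change 2.91 ± 0.25 SE, adjusted p = 2.3e-05). The type IV chains *Col4a5* and *Col4a6* fell (log2 fold change -0.91 and -1.36), and *Col9a1* fell from 104, 276 and 132 to 3.40, 4.27 and 3.92 (log2 fold change -5.02 ± 0.58 SE, adjusted p = 0.00016). In the collagen list 1 of 8 tested genes was higher and 6 were lower. *Col4a5*, *Col4a6* and *Col9a1* were the 3 of these 6 that kept their call in every leave-out fit, and 4 were lower without CTRL low CHIR of date 1 or without that date. *Nid2*, which links laminin to collagen IV, dropped from 5194, 5777 and 4769 to 1338, 132 and 431 (log2 fold change -3.62 ± 0.51 SE, adjusted p = 0.00067). The integrin *Itga9* (-2.12) and the matrix gene *Frem1* (-2.23) fell too. *Lama4* rose from 233, 435 and 653 to 2195, 693 and 2123 (log2 fold change 1.87 ± 0.45 SE, adjusted p = 0.017) but lost its call in 4 of 9 leave-out fits (1.18, adjusted p = 0.094, without date 1). Over laminins and integrins 2 of 11 tested genes were higher and 6 lower, and neither of those 2 kept its call in all leave-out fits. Without date 3 they were 0 and 5.

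Guidance genes, which steer axons, were called in both directions, with 7 of 16 tested genes higher and 7 lower. Without CTRL low CHIR of date 2 these became 6 higher and 3 lower, with the calls of *Plxna2*, *Sema4g*, *Ephb6*, *Sema3b* and *Unc5d* lost, and without date 3 they became 4 and 4. In all leave-out fits 4 of the higher and 3 of the lower genes kept their call. Within the Slit and Robo pair, the ligand *Slit2* rose from 359.7, 437 and 510.2 to 1136, 1597 and 1597 (log2 fold change 1.72 ± 0.15 SE, adjusted p = 2.2e-05), its receptor *Robo1* rose from 579, 494 and 414 to 1538, 832 and 1716 (log2 fold change 1.40 ± 0.25 SE, adjusted p = 0.0028), and *Robo2* fell from 7266, 4966 and 5624 to 637, 222 and 251 (log2 fold change -4.16 ± 0.24 SE, adjusted p = 1.5e-06). No library of 1 condition overlapped with the other in these 3 genes. The ephrin receptor *Epha4* rose from 201, 300 and 519 to 3189, 1313 and 5019 (log2 fold change 3.13 ± 0.32 SE, adjusted p = 6.7e-05) and the semaphorin *Sema5b* from 8.03, 14.1 and 6.35 to 90.7, 124 and 187 (log2 fold change 3.69 ± 0.55 SE, adjusted p = 0.001). The semaphorin receptor *Plxna4* fell from 35.7, 244 and 145 to 6.8, 21.4 and 18.0 (log2 fold change -2.88 ± 0.40 SE, adjusted p = 0.00059).

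Few cell cycle genes had a name. *Ccnd2*, encoding cyclin D2, rose from 6423, 4062 and 3842 to 38741, 22081 and 23254 (log2 fold change 2.54 ± 0.14 SE, adjusted p = 1.5e-06) with within-date differences that almost coincided. *Cdkn1b*, a cell cycle inhibitor, fell by 0.76 on the log2 scale and lost its call in 3 of 9 leave-out fits (-0.70 without date 3, adjusted p = 0.10). *Pcna* was at 6458, 5519 and 7097, then 8672, 10332 and 8248 (adjusted p = 0.059) and *Birc5* at 3386, 2589 and 3177, then 2579.9, 3770.3 and 2716 (adjusted p = 0.94), so neither was called. Of 9 tested p53 response genes 7 were lower, among them *Ccng1* (log2 fold change -1.38) and *Plk2* (-1.46), which were the 2 of the 7 that kept their call in every leave-out fit. Without CTRL high CHIR of date 3 the lower genes were 4, and without that date 2. *Pmaip1*, a proapoptotic gene, was higher (3.07). *Cdkn1a*, the p53 target that stops the cell cycle, was at 826, 2532 and 1681, then 1594, 2877 and 1458 and was not called (adjusted p = 0.49).

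Hox genes carry the position of a cell along the body axis. Of 39 listed genes 11 were named and tested, and a difference between clusters was not tested. The 3 named genes of the HoxB cluster were called higher: *Hoxb7* rose from 219, 388 and 289 to 584, 625 and 749 (log2 fold change 1.16 ± 0.18 SE, adjusted p = 0.0015), with *Hoxb8* and *Hoxb4* at 1.33 and 1.23 on the log2 scale. The 6 named HoxC genes were called lower, with log2 fold changes from -2.43 (*Hoxc4*) to -0.75 (*Hoxc9*). *Hoxc10* fell from 6208, 7329.8 and 7704 to 2016, 2778 and 2738 (log2 fold change -1.50 ± 0.13 SE, adjusted p = 2.3e-05). In HoxA, *Hoxa10* fell from 11451, 6490.4 and 8945 to 4363, 4277 and 3882 (log2 fold change -1.07 ± 0.17 SE, adjusted p = 0.0015) and *Hoxa3* was not called. Of the 10 Hox genes called, 1 of 3 higher and 4 of 7 lower genes kept their call in all leave-out fits. Without CTRL low CHIR of date 1 the calls were 2 higher and 4 lower, and without date 3 they were 1 and 5.

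Genes of cholesterol synthesis had small increases. Of 9 tested genes 6 were called higher, at log2 fold changes of 0.63 (*Nsdhl*) to 0.98 (*Sc5d*), and of the 6 only *Sc5d* kept its call in every leave-out fit. The number fell to 1 without CTRL low CHIR of date 1 or without that date, to 2 without CTRL low CHIR of date 2 or without that date, and to 3 without CTRL high CHIR of date 2 or without date 3. *Ch25h*, an enzyme that turns cholesterol into an oxysterol, had the largest fitted fall at a pseudocount of 1 and went from 1644, 1768 and 1385 to 2.27, 12.8 and 0 (adjusted p = 5.5e-06). *Slc16a1*, a lactate and pyruvate transporter, rose from 535, 784 and 584 to 1758, 1682 and 2213 (log2 fold change 1.58 ± 0.18 SE, adjusted p = 0.00013), while *Pfkm*, a glycolytic enzyme, was called lower at -0.56 but not in 5 of 9 leave-out fits. Of 6 tested genes of nephron segments 1 was higher, 4 were lower and 1 was not called, with a median log2 fold change of -1.73. The lower genes were *Tcf21*, *Pappa2* (log2 fold change -2.33), *Wt1* and *Foxc1* (-0.95), and *Foxc1* was called in 1 of 9 leave-out fits and not without the date block (adjusted p = 0.0641). The lower genes were thus 3 in 6 of these fits, and 2 without CTRL low CHIR of date 2, without CTRL high CHIR of date 2 or without that date. *Gata3*, which is also a marker of ureteric epithelium, was the higher gene, from 36.6, 73.7 and 25.4 to 354, 171 and 177 (log2 fold change 2.40 ± 0.48 SE, adjusted p = 0.0059, not called without date 3, 2.22, adjusted p = 0.064).

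Markers of other kidney cells moved with CHIR as well. Of 10 stromal markers 2 had a name, *Tcf21* and *Meis1*, and their sum was 5851 to 7119 in low CHIR and 1166 to 2024 in high CHIR. *Tcf21* fell from 3708, 4157 and 4684 to 934, 313 and 696 (log2 fold change -2.82 ± 0.37 SE, adjusted p = 0.00041) and *Meis1* from 2143, 2961 and 2345 to 1089.8, 853 and 749.9 (log2 fold change -1.47 ± 0.19 SE, adjusted p = 0.00034). The part of stromal cells in the falls of mesenchymal genes was not tested. *Tek*, the only named endothelial marker of 8, had 5 reads in low CHIR in all and 149, 89.7 and 177 normalized counts in high CHIR (adjusted p = 9.3e-05). None of 8 leukocyte markers had a name here.

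**Figure D3:**
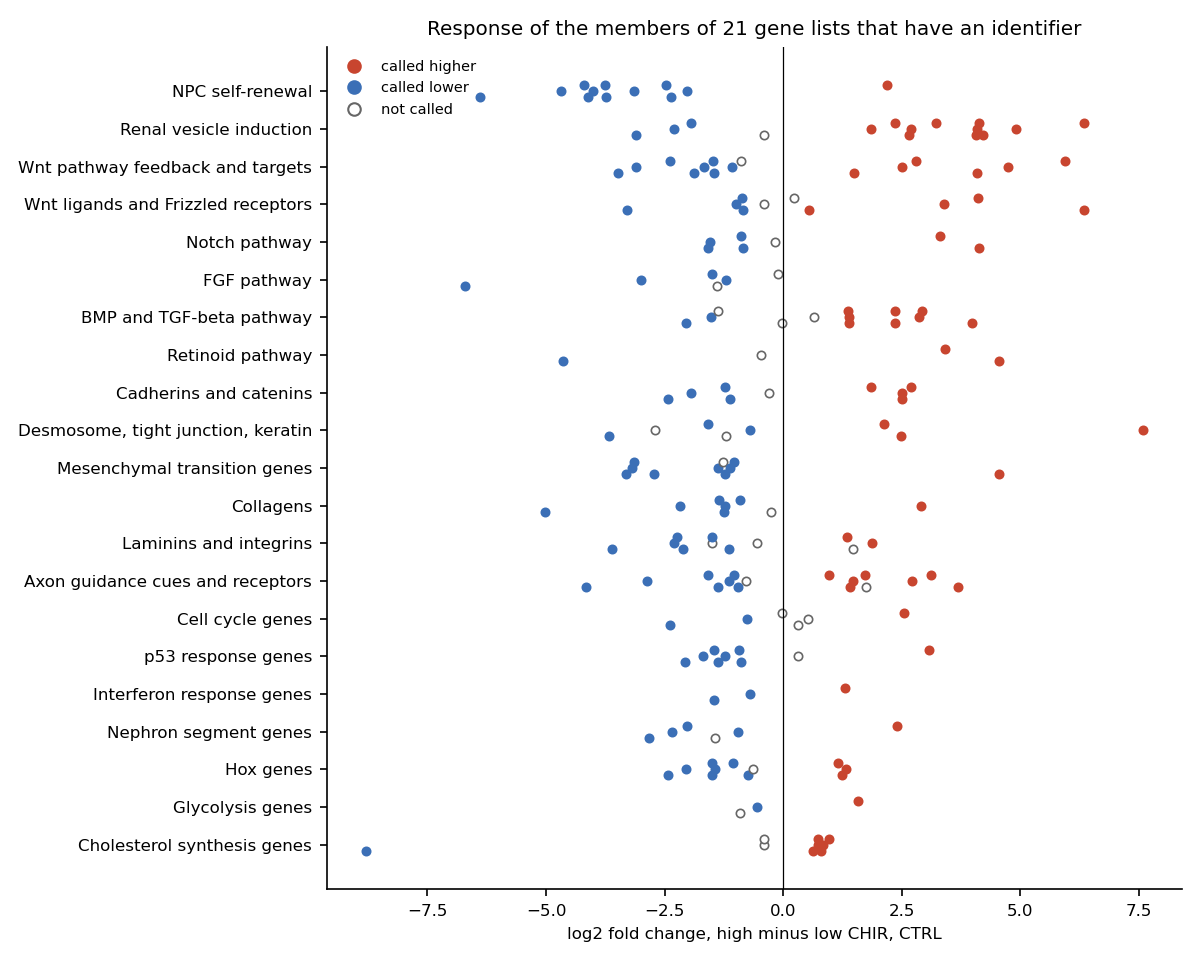
Log2 fold change of high minus low CHIR in CTRL (horizontal axis) for each named and tested member of 21 gene lists (1 row for each list), with red points for genes called higher, blue for lower and open points for genes not called. NPC self-renewal, FGF and mesenchymal genes lie mostly to the left, renal vesicle and BMP genes mostly to the right, and Wnt, cadherin and guidance genes on both sides.

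The largest increases among named genes with a mean count of at least 100 and no overlap were led by *Ntsr2*, a neurotensin receptor, with 0.893, 0 and 0 normalized counts in low CHIR, then 454, 637 and 675 in high CHIR. Only 1 read fell in *Ntsr2* over the 3 low CHIR libraries against 1858 in high CHIR, a ratio of normalized levels of 1794 (95% counting interval 322 to 70910, adjusted p = 4.5e-07). Its relative *Ntsr1* went the other way, from 249.9, 319.5 and 804 to no read in any high CHIR library, at least 154-fold lower against 3 reads per library (adjusted p = 2.5e-06). The neurotensin receptors thus moved in opposite directions. *Cthrc1*, a secreted protein linked to Wnt signalling, rose from 21.4, 69.3 and 30.7 to 3283, 2691 and 4623 (log2 fold change 6.55 ± 0.39 SE, adjusted p = 1.6e-06). *Syk*, a tyrosine kinase best known from blood cells, rose from 9.82, 10.8 and 12.7 to 1445, 817 and 787 (log2 fold change 6.34 ± 0.45 SE, adjusted p = 5.1e-06), and *Vegfc*, a growth factor of lymphatic vessels, from 13.4, 6.5 and 9.53 to 552, 413 and 627 (log2 fold change 5.65 ± 0.30 SE, adjusted p = 1.1e-06). The remaining increases of this group were *Gm50405*, *Krt23*, *Smoc2*, *Psd2*, *Sptlc3*, *Wnt4*, *Rnase12* and *Sv2b*, at log2 fold changes of 5.63 to 7.71. Among decreases, *Il33*, an alarmin cytokine, fell from 31176, 8577 and 11459 to 472, 12.8 and 29.8 (log2 fold change -7.95 ± 0.59 SE, adjusted p = 7.5e-06). *Nell1*, a secreted regulator of bone formation, fell from 2062, 3335 and 3113 to 98.7, 26.7 and 35.3 (log2 fold change -5.90 ± 0.50 SE, adjusted p = 1.9e-05). *Ch25h*, *Ntsr1*, *Fgf1*, *Nxph1*, *Meox2*, *BC030500*, *CJ186046Rik*, *Iigp1*, *Cdo1* and *Osr1* made up the rest.

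Switching between detection and near absence was rare. With 3 reads or fewer in each library of 1 condition and a mean of at least 50 normalized counts in the other, 12 genes were at the limit in low CHIR and 8 in high CHIR. Besides *Ntsr2*, *Krt23*, *Tek* and *Sp5*, the genes at the limit in low CHIR included *Hsd17b2*, a steroid dehydrogenase, with 109, 86.5 and 62.7 in high CHIR, and *Mab21l1*, a developmental gene, with 87.3, 22.4 and 128. At the limit in high CHIR were, besides *Ntsr1*, the cartilage matrix gene *Matn1* with 55.3, 83.4 and 135 in low CHIR and the adhesion gene *Ceacam1* with 42.8, 40.1 and 81.5. One of the 20, *Gm30117*, rested on dates 2 and 3, with 2.68, 56.3 and 114 in low CHIR, and was called in 3 of 9 leave-out fits.

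The response was repeated on each date. Of the 1155 higher genes 1149 rose on all 3 dates, and of the 1401 lower genes 1395 fell on all 3. These genes were chosen on the same libraries, so the agreement is a description. The size of the response differed by date: for higher genes the slope of the log2 differences on the mean of the other dates was 1.07, 0.833 and 0.939 on dates 1, 2 and 3, and for lower genes 0.801, 1.02 and 0.988. Date 1 thus had the steepest increases and the flattest decreases. Among named genes with a mean of at least 100, the widest spreads over dates were those of *Lhx1*, *Emx2os*, *Lypd6b*, *Sostdc1* and *Nxph1*. *Emx2os*, the antisense transcript next to *Emx2*, went from 1.79, 31.4 and 29.6 to 214, 135 and 407 (log2 fold change 4.02 ± 0.63 SE, adjusted p = 0.0014), with date 1 lowest in low CHIR, as for *Emx2*. Counts of overlapping antisense genes may share reads, since no strand setting is known here. *Sostdc1*, a BMP and Wnt inhibitor, had 6.25, 1656 and 490.1 in low CHIR, then 1.13, 49.1 and 3.92 in high CHIR (log2 fold change -4.48 ± 0.72 SE, adjusted p = 0.0016), so that the conditions overlapped, and was not called without the date block (adjusted p = 0.12). The narrowest were *Fabp5*, *Sms-ps*, *Mad2l2*, *Dcaf5* and *Gm9800*, where the 3 within-date differences almost coincided. Apart from *Fabp5* their changes were small, and *Gm9800*, *Dcaf5*, *Mad2l2* and *Sms-ps* were called in 2, 4, 5 and 8 of the 9 leave-out fits. *Fabp5*, a fatty acid carrier, rose from 2047, 3298 and 2689.6 to 5867, 9144 and 7458 (log2 fold change 1.49 ± 0.17 SE, adjusted p = 0.00013).

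The CTRL response was set against the response in each knockout group by the interaction of CHIR and genotype. Against α-catenin KO and against QCKO, 0% of 16516 genes were called by limma in either case, with 427 and 366 genes at an unadjusted p under 0.05, or 2.59% and 2.22%. In limma each knockout condition had 2 libraries, and a difference of responses smaller than the spread was not detectable. DESeq2 on recovered reads called 0 genes against QCKO. Against α-catenin KO it had 1 high CHIR library, that of date 1, since that of date 3 was left out of the tests on recovered reads, and this lone library is assumed to vary like the other groups. It called 1 gene there, *Laptm5* (log2 difference -5.82, adjusted p = 0.0093), which is named here because it is that 1 gene. *Laptm5* was at 2.27, 0 and 1.57 in CTRL high CHIR and at 39.9 in the α-catenin KO high CHIR library used, but at 0 in the one left out. The levels of 2 genes are given as examples. *Wnt4* stood at 43.9 and 123.1 in low CHIR, then 5212 and 5849 in high CHIR in α-catenin KO, and at 98.0 and 102, then 5664 and 4798 in QCKO. *Six2* stood at 1468 and 1384, then 41.2 and 63.5 in α-catenin KO, and at 1318 and 1373, then 27.8 and 44.0 in QCKO. For both genes the conditions did not overlap in either of these groups, as in CTRL.

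Against β-catenin KO the response differed in 400 of 16691 genes, or 2.4%. Of these, 105 rose in CTRL and rose less or not at all in β-catenin KO, and 282 fell in CTRL and fell less, which is 9.09% of the genes called higher and 20.1% of those called lower in CTRL, 15.1% of both. The counts for gene lists below stand against those shares. The number rested on the date block and on single libraries: 112 genes were called without the block, 206 without CTRL low CHIR of date 3, 253 without CTRL low CHIR of date 2, 214 without β-catenin KO low CHIR of date 3, and 260 and 243 without β-catenin KO high CHIR of date 1 and of date 3. The level of *Ctnnb1*, the targeted gene, could not be given because it had no name here. Progenitor genes were among them. *Six2* in β-catenin KO was at 1236, 969.5 and 773 in low CHIR and still at 798, 409 and 468 in high CHIR (difference of the log2 responses, CTRL minus β-catenin KO, -3.33 ± 0.39 SE, adjusted p = 0.00029). *Osr1* was at 1343, 863 and 946, then 1686, 624 and 680 (-4.48 ± 0.41 SE, adjusted p = 4.4e-05), and *Crym*, a thyroid hormone binding protein, at 3478, 2804 and 2942, then 4979, 2534 and 3507 (-3.97 ± 0.28 SE, adjusted p = 6.5e-06). Of the 12 progenitor genes called in CTRL, 10 also differed here, though *Cited1* and *Phf19* were called in only 6 and 2 of 12 leave-out fits. Without the date block *Cited1*, *Phf19* and *Eya1* were not called (adjusted p = 0.079, 0.0927 and 0.155). All 4 called FGF genes differed, *Spry1* and *Spry4* in only 5 and 6 of 12 leave-out fits, and *Fgf1* stayed at 1222, 832 and 1624 in high CHIR (-5.28 ± 0.49 SE, adjusted p = 5.3e-05). *Meox2* (-5.45 ± 0.47 SE, adjusted p = 3.9e-05), *Rdh10* (-4.18 ± 0.34 SE, adjusted p = 2.4e-05) and *Ch25h* (-7.53 ± 0.85 SE, adjusted p = 0.00021) likewise fell less in the knockout, and *Six2*, *Osr1*, *Crym*, *Fgf1* and these 3 genes kept the call in each fit that left out 1 library.

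Some of the genes that rose in CTRL are given as examples of levels in β-catenin KO. *Ntsr2* reached 19.6, 102 and 40.8 in high CHIR there (6.07 ± 1.02 SE, adjusted p = 0.0044), and *Vegfc* reached 16.2, 167 and 72.0 (4.49 ± 0.88 SE, adjusted p = 0.012). *Wnt4* was at 30.1, 831 and 634 in low CHIR, then 252, 2387 and 1200.4 in high CHIR (4.51 ± 0.98 SE, adjusted p = 0.023), a call that 6 of 12 leave-out fits lost and that was also lost without the block (adjusted p = 0.17). *Axin2* was at 14, 559.7 and 384, then 18.5, 743 and 687, and *Lef1* at 62.3, 659.7 and 532, then 93.6, 677 and 1020, and neither interaction was called (adjusted p = 0.44 and 0.057). The β-catenin KO libraries of date 1 held little of these Wnt readouts in both conditions, while in low CHIR those of dates 2 and 3 already lay above every CTRL low CHIR library. Of the 14 Wnt list genes called in CTRL 3 differed from β-catenin KO, *Dkk2*, *Dkk3* and *Tcf7l1*, and *Dkk3* not without the block (adjusted p = 0.283).

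**Figure D4:**
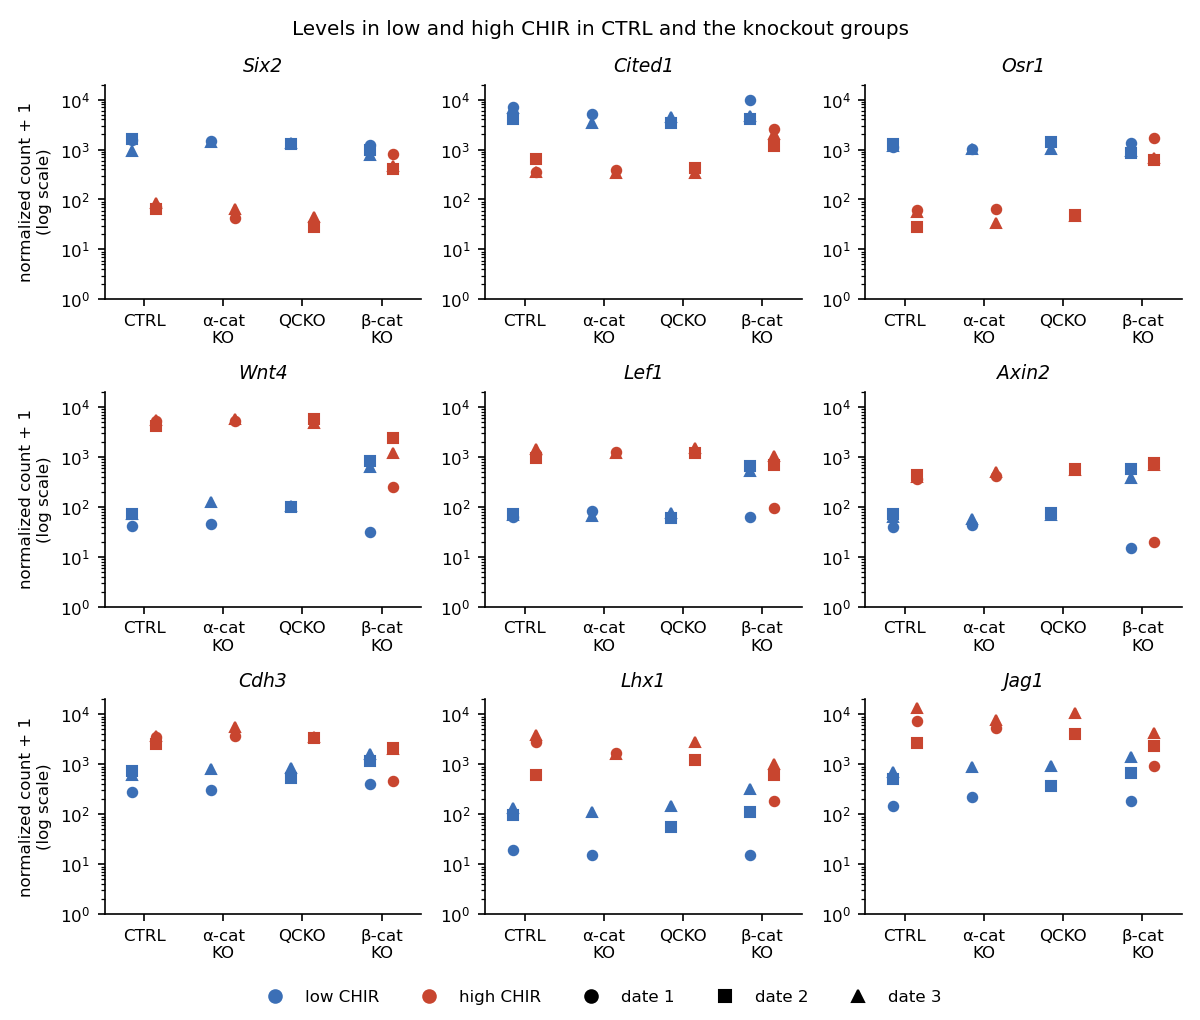
Normalized counts + 1 (vertical axes, log scale) of 9 genes in low (blue) and high (red) CHIR in CTRL and in the QCKO, β-catenin KO and α-catenin KO groups, with 1 point for each library and its shape for the date. *Six2* and *Osr1* fall below 100 in high CHIR in each group but β-catenin KO, and the β-catenin KO libraries of date 1 (circles) hold less *Lef1* and *Axin2* than those of dates 2 and 3.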

How the data were processed

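RNA from sorted mouse NPCs was sequenced in 20 libraries, and the 6 CTRL libraries were compared between high and low CHIR. The deposited signal is a table of normalized counts, in which the authors scaled each library's gene counts by a single size factor. The submitters' processing notes name STAR, featureCounts, Salmon and DESeq2, with the build GRCm38/mm10 for mouse, but not the role or order of each tool. The step between values was used to recover read counts: 100% of values came out whole (tolerance 0.01) in each CTRL library. The value of 1 read in 2 knockout columns (α-catenin KO high CHIR of date 3 and β-catenin KO low CHIR of date 2) was too close to 1 for this to be claimed, and these were left out of count tests. The tables of the authors' own comparisons hold fold changes and p-values, which were not used, and were read only for gene symbols.

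Genes with a mean of at least 10 normalized counts were tested with limma 3.58.1 (trend, in R 4.3.3) on log2(normalized count + 1), over the 14 libraries of CTRL, α-catenin KO and QCKO, with the date in the sample name as a block. Interactions with genotype used the same fit, with all 20 libraries for β-catenin KO. Calls needed a Benjamini-Hochberg adjusted p below 0.05 and a log2 fold change above 0.5 in size. Replicate numbers stand for that date, which sample names share between groups, so they pair the samples. The deviations of same-date libraries from their group means correlated at 0.392, 0.0433 and 0.302 on dates 1, 2 and 3. Between libraries of different dates the correlations were -0.384 to 0.124, a range that holds the value of date 2. Alternatives were edgeR 4.0.16 and DESeq2 1.42.0 on recovered reads (13 libraries, or 18 with β-catenin KO), other pseudocounts and filters, quantile normalization, other sets of libraries, no block, and leaving out each library or date. The steps were tested on simulated data.

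Genes were named by a rule. It took the 12 largest changes each way (mean of at least 100, no overlap), up to 6 called members of each gene list each way, the genes the paper discusses, up to 8 genes each way at the limit of detection (at most 3 reads per library, and a mean of at least 50 in the other condition), the 5 widest and 5 narrowest ranges over dates, and the 6 largest β-catenin KO interactions each way. List members not called were named beside them, and *Laptm5* was chosen after its values were seen, as were further called members named to complete a list. The members and lists were chosen with earlier results of these data known. CTRL libraries held 19950784 to 28472412 reads. Intervals and limits for low counts cover counting error only, and reads without molecular identifiers are not independent molecules. The study's text calls its sequenced samples biological replicates. What the date marks, and whether samples came from separate litters, is not given in the sources used here, so p-values measure only the spread between these samples. The result of 1 gene list is not reported here.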

Additional observations from a re-analysis of the deposited data

Results flagged for a closer look

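The response to CHIR differed between CTRL and β-catenin KO in 400 genes by the test of the interaction (limma, adjusted p under 0.05). Of these, 105 rose in CTRL and rose less in β-catenin KO, and 282 fell in CTRL and fell less. The number with an unadjusted p under 0.05 was 2426 of 16691. The β-catenin KO libraries of date 1 stood apart from those of dates 2 and 3 in *Axin2*, at 14 against 559.7 and 384 normalized counts in low CHIR, and at 18.5 against 743 and 687 in high CHIR. The part of that library pair in the interaction was not tested beyond leaving out each of its libraries singly. That gave 478 genes without the low CHIR library and 260 without the high CHIR library. Over all libraries left out singly, CTRL ones included, the number was 206 to 554.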

How the results depend on the processing

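The 2556 genes called in CTRL became 906 with only the 6 CTRL libraries and 761 with these libraries and no replicate block, a setting added after seeing the data. A threshold of 1 for the absolute log2 fold change gave 1689. Leaving out a library or a date gave 1277 (without date 3) to 3656 (without CTRL high CHIR of date 1), with 1505 without CTRL low CHIR of date 1. Without the replicate block 1760 genes were called, with edgeR 2389, with DESeq2 2960, with all 20 libraries 2910, with no filter 2461, with a mean of at least 100 1779, with pseudocounts of 0.25 and 5 2519 and 2625, and with quantile normalization 2481. The median log2 fold change of all genes was -0.006, 0.019 after quantile normalization and 0.009 with TMM. Of 3533 alternative values for the 179 genes taken by the naming rule, 3178 kept direction and call, 354 lost the call, 1 gained it and 0 changed direction. Further genes named beside them are not in this count, and among these leaving out a library or date turned the sign of *Tmem132a* (-1.01 to 0.56), *Birc5* (-0.31 to 0.16) and *Cdkn1a* (-0.01 to 0.58). The counts of list members stayed within 1.5 times in 419 of 480 cases and moved further in 61. The interaction with β-catenin KO gave 112 genes without the replicate block, 206 to 554 when 1 library was left out, 349 with a mean of at least 100, 415 with a pseudocount of 5 and 560 with DESeq2, which ran without 1 low CHIR library of that knockout. For α-catenin KO, DESeq2 called 1 gene where limma called 0, but with 1 high CHIR library of that knockout in place of 2. The cause of these differences was not tested. Depth limits genes with few reads: a gene without a read can lie at up to 3 reads in a library.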
